A study of Mus musculus with 20 samples.

Results

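This comparison sets B cells of VavPBcl2 lymphomas that received an empty vector against B cells of normal mouse spleen. The members are the 12 samples that the labels place in these groups, out of 20 in the series, and every gene of the table was considered. The 8 vector lymphoma samples carry the genotype VavPBcl2/vector: the Vav promoter drives a transgene for Bcl2, an inhibitor of apoptosis, in blood cells, and the lymphomas were transduced with a vector holding no further gene. The 4 normal samples came from spleens with neither transgene nor vector. All mice had the C57BL/6 background, and cells of both groups were enriched with magnetic beads for B220, the B cell form of the surface protein CD45. Ages, the organ that held each lymphoma and the animal behind each sample are not among the labels, so p-values here measure the spread between samples. The other 8 samples are lymphomas of the same model with Myc, and they enter the estimate of that spread and the filter on low counts, which sets the genes tested.

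In a germinal centre, B cells that have met antigen divide fast and mutate their antibody genes. They also carry out class switching, in which the antibody changes from IgM to IgG, IgA or IgE. Follicular helper T cells select the cells that go on, and those that leave become memory cells or antibody-secreting plasma cells. VavPBcl2 mice are used as a model of follicular lymphoma, a tumour of germinal centre B cells.

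Each library held 43.0 to 52.9 M (1e6) counts on genes in normal samples and 28.7 to 56.3 M in vector lymphomas. By the run numbers in the labels, normal replicate 1 and vector replicates 1 to 6 came from later sequencing runs, and normal replicates 2 to 4 and vector replicates 7 and 8 from earlier ones. Vector replicates 7 and 8 also share a title prefix of their own. Mitochondrially encoded genes took 0.39 to 1.05% of gene counts in samples from the later runs and 5.03 to 8.63% in those from the earlier runs, so the test carries a run term. Both Y chromosome genes looked at, Ddx3y and Eif2s3y, reached 5 CPM (counts per 1e6 counts on genes, after scaling) in 0 of 4 normal and 6 of 8 vector samples, so sex was not balanced. Below, CPM are levels per sample with no correction for run, whereas log2 fold changes (vector minus normal, with standard error, SE) and adjusted p-values come from the fit with the run term. Rose, fell and called mean an adjusted p under 0.05 in that fit of all 20 samples.

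The vector lymphomas differed from normal B cells mostly by higher expression. Of 17824 genes tested, 867 rose (4.86%) and 358 fell (2.01%), and 785 and 289 of these changed at least 2-fold. The genes that rose included most germinal centre and antibody genes measured and many genes of mitosis and of antibody secretion, whereas NK cell genes and a few genes of resting B cells were among those that fell. All 8 vector samples lay above all 4 normal samples for 7.33% of the genes tested and below them for 5.91%. Each of the 1217 calls that could be fitted within both run sets had the same sign in both. A fit of the 12 samples alone, also with the run term, called 12.4% of 16945 genes higher and 10.8% lower. It held all of the 1213 calls of the larger fit that it tested, with the same sign. Both comparisons reuse the samples that gave the calls, so their agreement is not independent evidence. Counts of list members below are to be read beside these shares of all genes. The counts leaned on normal replicate 1, the lone normal sample of the later runs: without it 295 genes rose and 35 fell. Without vector replicate 8 the numbers were 512 and 209, without vector replicate 7 they were 653 and 179, and without normal replicate 3 they were 577 and 210. With a term for the Y chromosome genes added, 727 rose and 159 fell.

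**Figure D1:**
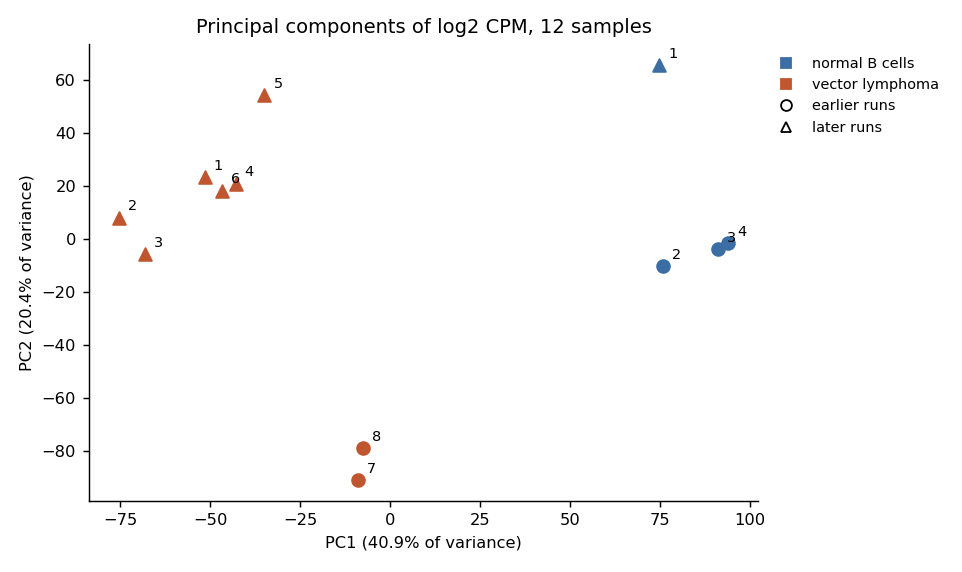
Each point is 1 of the 12 samples on the first (x axis) and second (y axis) principal component of log2 CPM over the genes tested, with the percent of variance on the axis, coloured by group, and triangles mark the later runs. Normal samples lie at 74.9 to 93.9 on the first component, which holds 40.9% of the variance, and vector lymphomas at -75.3 to -7.5. The second component, with 20.4%, has vector replicates 7 and 8 at -90.8 and -78.9.

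The plot of the first principal components places all 4 normal samples on 1 side of all 8 lymphomas. Across genes, which are not independent replicates, the median Spearman correlation between samples was 0.985 within normal B cells, 0.974 within vector lymphomas and 0.95 between the groups.

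Germinal centre genes were far higher in the lymphomas. Of the 14 measured genes of the germinal centre list 12 rose and 0 fell, with a median log2 fold change of 3.35 against 0.007 over all genes tested, and 13 of the 14 lay higher in every lymphoma than in any normal sample. The fit of 12 samples called 13 higher. Among all genes tested 4.86% rose and 7.33% lay higher in every lymphoma, and the fit of 12 called 12.4% higher.

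S1pr2 (ENSMUSG00000043895), the receptor that holds B cells inside the germinal centre, stood at 5.91, 10.8, 7.25 and 7.14 CPM in normal B cells and at 48.6 to 211 CPM (median 127) in lymphomas. The groups did not overlap, and S1pr2 rose 20.4-fold (log2 4.35 ± 0.65 SE, adjusted p = 0.000309). Nuggc, a nuclear GTPase of germinal centre B cells, ran from 2.42 to 5.43 CPM in normal samples and from 89.3 to 316 CPM (median 155) in lymphomas, further apart than for S1pr2 (5.09 ± 0.84, adjusted p = 0.000851). Mybl1, a transcription factor of proliferating germinal centre cells, was at 3.91 to 5.09 CPM against 20.7 to 112 CPM (4.09 ± 0.61). Neil1, a glycosylase of DNA base repair, had the smallest p of the list: it was at 19.8, 20.8, 17.9 and 38.1 CPM in normal B cells and at 99.7 to 276 CPM (median 167) in lymphomas (2.91 ± 0.34, adjusted p = 5.94e-05). Efnb1, a surface ligand for Eph receptors, went from a mean of 4.56 ± 1.06 to 45.2 ± 17.5 CPM (SD, n = 4 and 8), with a log2 fold change of 3.21 ± 0.39. Fas, a death receptor of germinal centre B cells, was at 12.2 ± 1.87 and 47.4 ± 17.6 CPM (2.02 ± 0.39, adjusted p = 0.00288). The other members that rose were Basp1, Eaf2, Rgs13 and Gcsam, at log2 fold changes of 2.98 to 3.93, and Gcnt3, for which no fold is given because the normal libraries held 3 counts in all.

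The factor that directs the programme had a smaller fold change. Bcl6, the repressor that germinal centre B cells depend on, was at 114, 100, 98.6 and 108 CPM in normal samples and at 151 to 297 CPM (median 215) in lymphomas. All lymphomas lay above all normal samples, but the run-adjusted fold change of 0.95 ± 0.36 was not called in the fit of 20 samples (adjusted p = 0.127) and was called in the fit of 12 (adjusted p = 0.00232). Lmo2, another factor of the list, had 0.28 ± 0.25 (adjusted p = 0.58). Among the lymphomas the list varied together in part: vector replicate 5 had the lowest value for 10 of the 14 members and vector replicate 3 the highest for 7. Summed over the list, normal samples held 271 to 297 CPM, and vector replicate 5 with 727 CPM and vector replicate 3 with 1950 CPM marked the ends of the lymphomas. Within the earlier runs 8 of the 14 were called, and within the later runs 10.

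**Figure D2:**
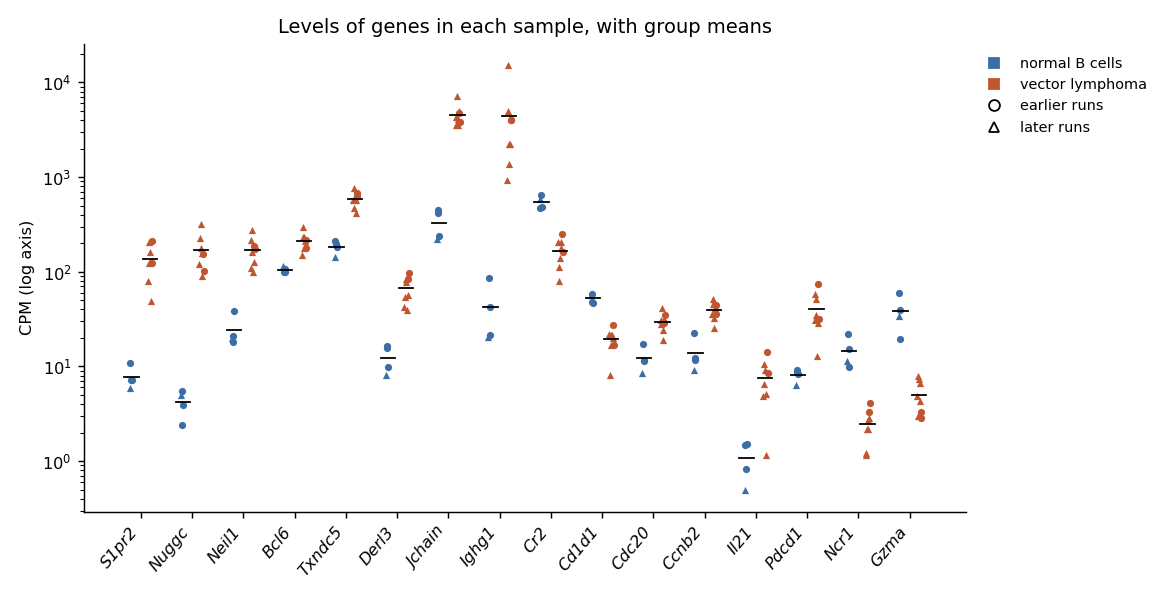
Levels of 16 genes in CPM (y axis, log scale) are drawn for each of the 4 normal and 8 vector samples, with a line at each group's mean. S1pr2, Nuggc and Neil1 lie apart between the groups, with normal samples at 2.42 to 38.1 CPM and lymphomas at 48.6 to 316 CPM, whereas Cr2, Cd1d1, Ncr1 and Gzma lie lower in the lymphomas.

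Some genes of the mutation and switching machinery rose, while the list's median did not move. Of 29 such genes 4, among them Hmces, Polh and H2afx, rose and 0 fell, with a median of 0.00. Over all genes tested 4.86% rose and 2.01% fell. The fit of 12 samples called 4 higher and 2 lower, against 12.4% and 10.8% of all genes it tested. Hmces, which binds abasic sites in DNA, rose from 48.6 ± 18 to 234 ± 140 CPM (1.66 ± 0.32, adjusted p = 0.00283), with normal replicate 1 at 75.7 CPM and the lowest lymphoma at 97.3 CPM. Polh, the polymerase that writes mutations at A and T bases, rose by a log2 fold change of 0.91 ± 0.24 (adjusted p = 0.023), and H2afx, a histone that marks broken DNA, by 1.121 ± 0.32 (adjusted p = 0.0359). Ung, which removes uracil from DNA, was at 12.2 ± 0.83 and 14 ± 3.55 CPM (0.12 ± 0.22, adjusted p = 0.81). Leaving out normal replicate 1 left 1 call in this list, and leaving out normal replicate 4, vector replicate 7 or vector replicate 8 left 2 each.

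Antibody transcripts were higher, those of switched classes most of all. Of 8 immunoglobulin constant region genes 7 rose, with a median log2 fold change of 6.20, in both the fit of 20 and the fit of 12 samples. Ighg2b, the constant region of IgG2b, stood at 44.1, 218, 103 and 83.4 CPM in normal samples and at 2840 to 8980 CPM (median 5290) in lymphomas, with no overlap (6.26 ± 0.92, adjusted p = 0.000293). Ighg1, of IgG1, was at 20.6 to 85.3 CPM in normal samples and spread from 930 CPM to 15200 CPM, in vector replicate 2, among lymphomas (6.87 ± 1.43, adjusted p = 0.00528). Ighg2c and Ighg3 rose by 6.15 ± 1.122 and 6.59 ± 1.22 on the log2 scale, and Ighe, of IgE, reached a mean of 15.6 ± 19.9 CPM from 0.0998 ± 0.0822 CPM. Ighm, of IgM, rose by a smaller log2 fold change (1.49 ± 0.43, adjusted p = 0.038) and overlapped: normal samples held 4190 to 7200 CPM and lymphomas 5350 to 23000 CPM. Igkc, the kappa light chain constant region, stood at 2270 to 3480 CPM against 13300 to 31100 CPM (3.08 ± 0.56, adjusted p = 0.00203), and the lambda gene Iglc2 was not called (1.00 ± 0.55, adjusted p = 0.32). Within the earlier runs 2 of the 8 were called, and within the later runs 3.

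The composition of these transcripts was then compared as shares within each sample. Switched genes held 3.32, 11.9, 3.18 and 4.72% of heavy chain constant counts in normal samples. In lymphomas they held 53.1, 87.35, 68.3, 43.3, 57.2, 63.2, 61.4 and 60.1% for replicates 1 to 8, so the least switched lymphoma lay far above the most switched normal sample. The means were 5.78 ± 4.15% and 61.7 ± 12.8% (SD, n = 4 and 8), and an exact two-sided permutation test gave p = 0.004, the smallest that 4 against 8 samples allow, or 0.0054 adjusted over 4 measures. Lambda made up a smaller share of the light chain constant counts; over the 1 lambda gene analysed here it was 10.7 ± 1.49% and 3.30 ± 2.14% (exact permutation p = 0.004, adjusted 0.0054). The largest kappa V gene held 8.58 ± 2.61% of kappa V counts in normal samples and 32.8 ± 20.4% in lymphomas (exact permutation p = 0.004, adjusted 0.0054). That gene was Igkv5-39 in 7 of the 8 lymphomas, with 72.4% in vector replicate 4 and 57.0% in vector replicate 5, and it was also the largest in normal replicate 2, at 11.8%. The share of the largest heavy V gene did not differ at the threshold (18.4 ± 1.18% against 31.9 ± 21.1%, exact permutation p = 0.061). The size of the difference leaned on vector replicate 4, where Ighv7-1 held 81.9%: without that sample it dropped from 13.5 to 6.38 percentage points. Vector replicates 1 and 5 were lowest, at 15.4 and 17.0%, against 17.2 to 19.9% in normal samples. The other lymphomas held 24.6 to 81.9%. The V shares are over the 27 heavy and 59 kappa V genes found among the deposited counts. V genes outside these do not enter, so a largest share is not a share of the whole repertoire. V genes also resemble each other, and reads aligned to more than 1 place are not in these counts, so the V shares are uncertain.

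**Figure D3:**
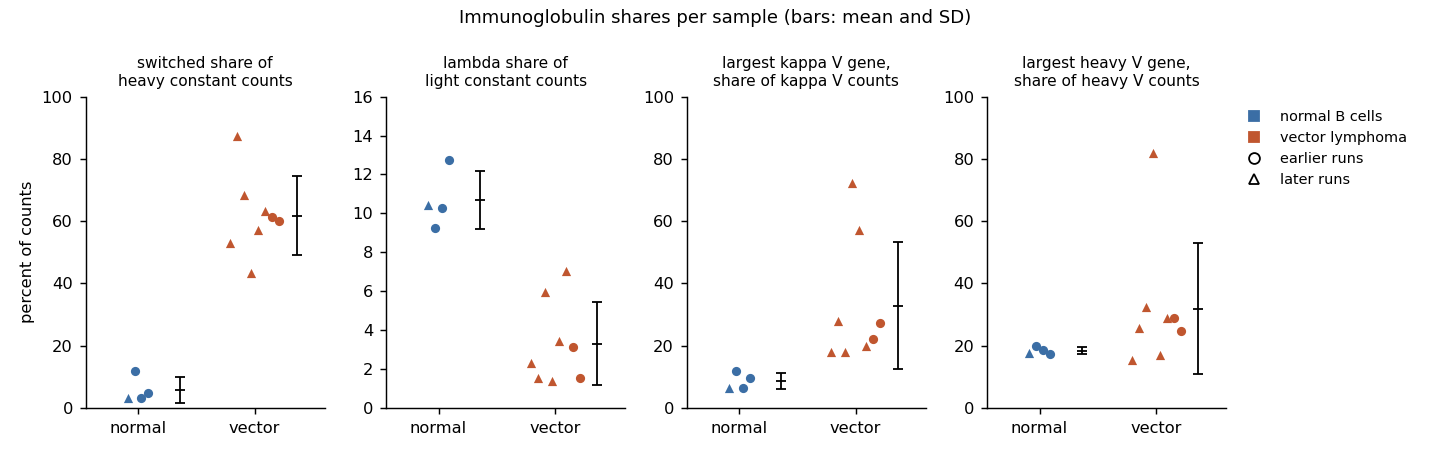
The 4 panels give, in percent (y axis), the switched share of heavy constant counts, the lambda share among light constant counts and the shares of the largest kappa and heavy V genes, with 1 point per sample and the mean with SD for 4 normal and 8 vector samples. The switched share separates the groups (3.18 to 11.9% against 43.3 to 87.35%), while the V gene shares spread widely among lymphomas.

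Plasma cell genes rose with the antibody transcripts. Of 18 plasma cell genes 10 rose and 0 fell (median 1.52), against 4.86% of all genes tested that rose. The fit of 12 samples called 13, against 12.4% of all its genes called higher. Jchain (ENSMUSG00000067149), the chain that joins IgM and IgA units, was at 220, 422, 445 and 238 CPM in normal samples and at 3510 to 7200 CPM (median 4220) in lymphomas. It did not overlap between groups (3.87 ± 0.63, adjusted p = 0.000791). Xbp1, the factor that enlarges the secretory apparatus, stood at 102, 144, 129 and 113 CPM against 308 to 488 CPM (1.85 ± 0.33, adjusted p = 0.00175). Prdm1, the repressor that starts plasma cell differentiation, rose from 14.9 ± 2.83 to 56.0 ± 19.2 CPM (2.14 ± 0.53, adjusted p = 0.016), and Sdc1, the surface marker CD138, from 16.8 ± 2.53 to 114 ± 36.5 CPM (2.32 ± 0.39, adjusted p = 0.00108). Irf4, which acts early on the same path, was not called (0.23 ± 0.60, adjusted p = 0.87) and had its highest value, 820 CPM, in vector replicate 5. Calls fell to 5 of 18 without normal replicate 1 and to 6 without vector replicate 8, and none was made within the earlier runs, where the median was also 1.52.

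Genes that fold proteins in the endoplasmic reticulum were counted with a list of 24 added after the values were seen. Of these, 5 rose (Txndc5, Derl3, Creld2, Sdf2l1 and Manf) and 0 fell, with a median of 0.72, and the fit of 12 samples called 18 higher. The shares of all genes were 4.86% that rose and 12.4% called higher in the fit of 12. With the Y chromosome term 11 of the 24 rose and 0 fell. Txndc5, a disulfide isomerase, was at 143 to 211 CPM in normal samples and at 418 to 765 CPM in lymphomas (1.84 ± 0.23, adjusted p = 7.85e-05). Derl3, a channel subunit that removes misfolded proteins, stood at 8.03, 16.3, 15.5 and 9.80 CPM against 39.7 to 97.1 CPM (2.78 ± 0.53, adjusted p = 0.00269). Creld2, a chaperone-like isomerase, was at 28.0 to 37.0 CPM against 93.4 to 174 CPM (1.81 ± 0.39, adjusted p = 0.00644). The promoters of Derl3 and Creld2, which changed in both lists, are shown because each holds the endoplasmic reticulum stress element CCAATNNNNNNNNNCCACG, the site known for Xbp1 and Atf6, in capitals on either strand. They run from 250 bases before to 50 after the start in RefSeq (GRCm38.p6), at chr10:75893148-75893447 on the plus strand and chr15:88819396-88819695 on the plus strand.
Derl3: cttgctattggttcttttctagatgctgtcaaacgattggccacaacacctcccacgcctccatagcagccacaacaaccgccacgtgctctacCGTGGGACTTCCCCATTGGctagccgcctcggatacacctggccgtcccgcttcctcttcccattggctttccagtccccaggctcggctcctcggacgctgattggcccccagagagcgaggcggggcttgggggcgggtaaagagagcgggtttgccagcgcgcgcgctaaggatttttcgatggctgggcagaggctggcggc
Creld2: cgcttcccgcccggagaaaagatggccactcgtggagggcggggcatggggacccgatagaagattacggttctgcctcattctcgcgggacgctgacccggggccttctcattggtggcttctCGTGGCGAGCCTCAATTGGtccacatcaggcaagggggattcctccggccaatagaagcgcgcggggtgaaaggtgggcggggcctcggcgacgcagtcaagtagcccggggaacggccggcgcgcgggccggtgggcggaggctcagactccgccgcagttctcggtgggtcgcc

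The element, searched on both strands and chosen after the values were seen, occurred in 8 of 21 promoters of the folding list (38.1%), in 2 of 16 of the plasma cell list (12.5%) and in 0.178% of the 11208 tested genes with a promoter. Of those 8 genes only Derl3 and Creld2 rose, and Calr, Canx, Dnajc3, Hsp90b1, Hspa5 and Pdia6 were not called in the fit of 20 samples. The fit of 12 samples also called Calr, Hsp90b1, Hspa5 and Pdia6 higher, but not Canx or Dnajc3. The element's inner CCAAT letters overlap the CCAAT box counted below. The shares describe letters, with no statement on binding.

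Genes common to all B cells did not pass the threshold. Of 19 pan-B-cell genes 0 passed the test in either direction (median -0.09), and the fit of 12 samples called 2 higher and 1 lower. Cd79a, a signalling chain of the B cell receptor, was at 979.7 ± 153 and 1107 ± 387 CPM (0.43 ± 0.50, adjusted p = 0.69), and Ptprc, the CD45 gene whose B220 form was used for enrichment, at 1460 ± 171 and 1159 ± 172 CPM (-0.35 ± 0.36, adjusted p = 0.64). Both groups therefore carried the defining markers of the labelled cell type. Of 26 B-cell receptor signalling genes 0 were called in the fit of 20 samples and 7 higher and 6 lower in the fit of 12.

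Some genes of resting mature B cells fell. Of 14 follicular B cell genes 2 fell and 0 rose (median -0.54), against 2.01% and 4.86% of all genes tested. Cr2 (ENSMUSG00000026616), a complement receptor, stood at 585, 468, 652 and 482 CPM in normal samples and at 79.5 to 249 CPM (median 171) in lymphomas, with no overlap (-1.62 ± 0.36, adjusted p = 0.00923). Of 18 genes of marginal zone and B-1 cells 1 fell and 0 rose (median -0.32). The fit of 12 called 3 of them higher and 5 lower, against 12.4% and 10.8% of all genes it tested. The gene that fell was Cd1d1, which presents lipids and is high on marginal zone cells. It was at 56.9, 47.5, 57.8 and 47.2 CPM in normal samples and 8.17 to 27.1 CPM in lymphomas (-1.39 ± 0.22, adjusted p = 0.000677). Of 11 pro-B and pre-B cell genes Sox4, Lef1 and Dntt fell, by 1.58 ± 0.28, 2.09 ± 0.53 and 2.62 ± 0.69 on the log2 scale. Lef1 is also a gene of T cells, and it reached 119 CPM in vector replicate 5, within the normal range of 77.3 to 133 CPM. The follicular calls dropped to 0 without normal replicate 1 and to 1 without normal replicate 3, vector replicate 7 or vector replicate 8. The call of Cd1d1 was lost without normal replicate 1, and the pro-B and pre-B calls dropped to 1 without vector replicate 7 or 8.

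Some MHC class II genes, which serve antigen presentation, passed the threshold in the fit of 12 samples but not in the fit of 20. Of 13 such genes 0 were called in the fit of 20 samples, with a median of 0.55. In the fit of 12, 7 were called higher, against 12.4% of all genes it tested. Those 13 included 7 whose lymphoma samples all lay above all normal samples, against 7.33% of all genes tested. Ciita, the activator of MHC class II genes, was at 383, 321, 398 and 310 CPM in normal samples and at 442 to 798 CPM (median 647) in lymphomas (0.62 ± 0.32, adjusted p = 0.28, or 0.0094 in the fit of 12). H2-Ab1, an MHC class II chain, was at 2280 to 2900 against 3240 to 4770 CPM (0.68 ± 0.36, adjusted p = 0.3, or 0.00994). Among 20 costimulation, checkpoint and BAFF receptor genes 3 rose, against 4.86% of all genes tested. They were Pdcd1lg2, a ligand of PD-1 (1.20 ± 0.24, adjusted p = 0.00449), Cd80, a ligand of CD28 (1.35 ± 0.34), and Tnfsf9, a ligand of the receptor Tnfrsf9 (1.51 ± 0.45). In the fit of 12 samples 6 of the 20 were higher and 1 lower, and the 3 calls became 0 without normal replicate 1 and 1 without vector replicate 7.

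**Figure D4:**
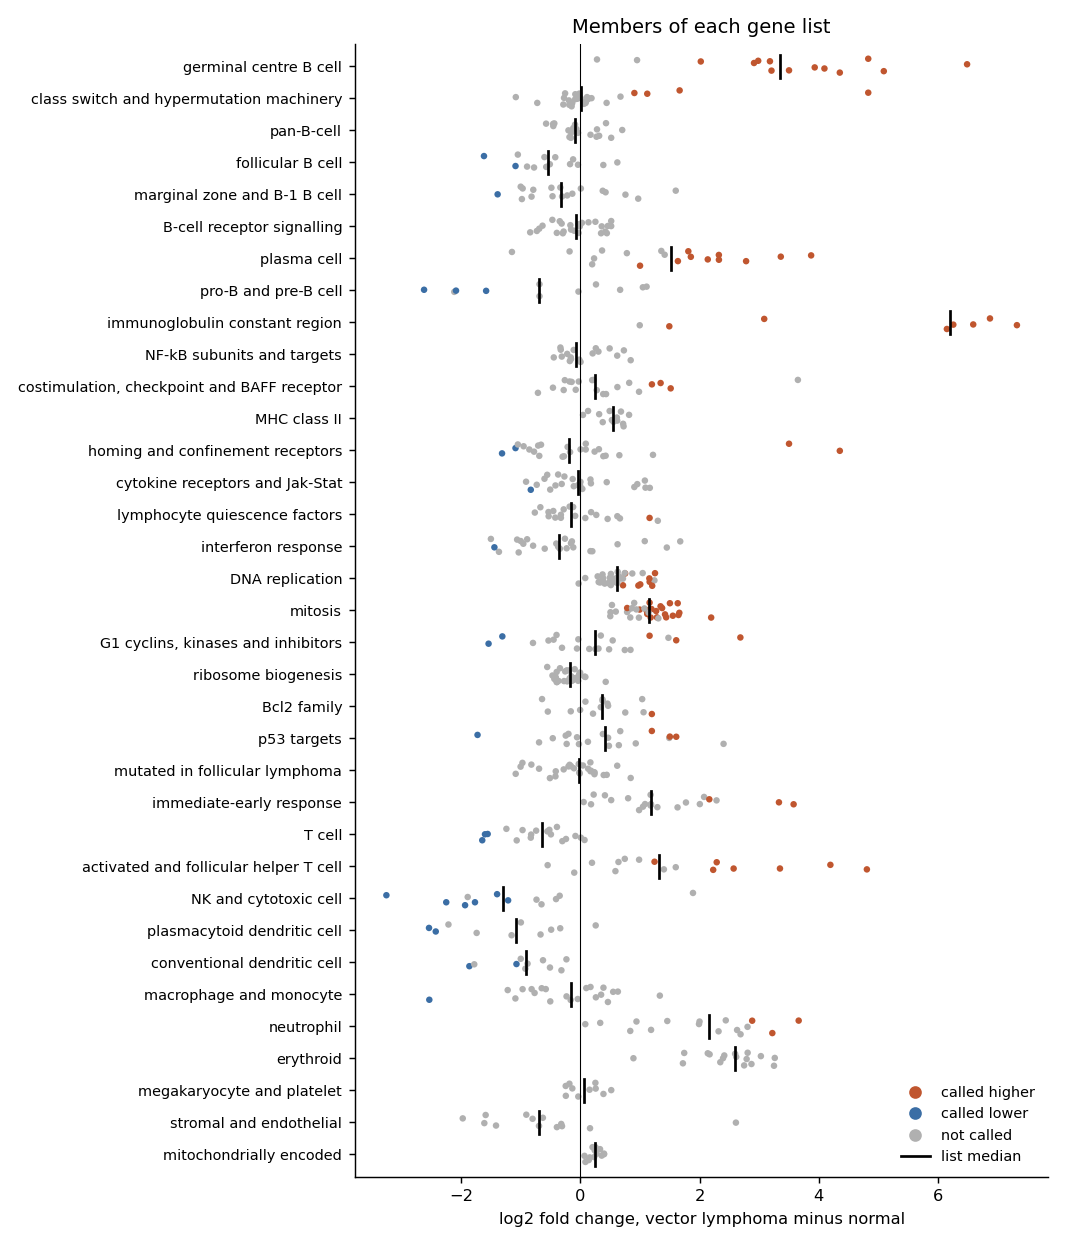
Each point is the log2 fold change (x axis, vector minus normal, fit of 20 samples with the run term) of 1 measured member of the gene list on that row, coloured where called, and the bar is the list's median. Immunoglobulin constant region, germinal centre, mitosis and plasma cell lists sit to the right, at medians of 6.20, 3.35, 1.15 and 1.52. Erythroid and neutrophil lists also sit to the right, at 2.60 and 2.16, as do helper T cell and immediate-early genes, at 1.32 and 1.18. NK and cytotoxic genes sit to the left, at -1.31, while pan-B-cell genes straddle zero at -0.09.

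Mitosis genes rose widely. Of 34 measured 20 rose and 0 fell (median 1.15), against 4.86% of all genes tested that rose. The fit of 12 samples called 27, against 12.4% of all its genes called higher. Plk1, a kinase that drives mitotic entry, was at 8.96, 14, 8.96 and 9.21 CPM in normal samples and at 21.0 to 43.4 CPM (median 28.1) in lymphomas, without overlap (1.55 ± 0.26, adjusted p = 0.00112). Ccnb2, a B-type cyclin, stood at 9.08, 22.4, 12.4 and 11.7 CPM against 25.3 to 51.4 CPM (1.66 ± 0.30, adjusted p = 0.00203). Cdc20, which activates the anaphase-promoting complex, was at 8.61, 17.4, 11.7 and 11.5 CPM against 18.9 to 40.9 CPM (1.44 ± 0.27, adjusted p = 0.00255). Normal replicate 2 was the highest normal sample for these 3 genes. Red cell transcripts moved with this list: normal replicate 2 held 1300 CPM summed over mitosis genes and 3810 CPM over 17 erythroid genes, against 703 to 784 and 256 to 343 CPM in the other normal samples. Vector replicates 2 and 6, with the highest erythroid sums (20100 and 21200 CPM), held 2790 and 2250 CPM over mitosis genes, 2 of the 3 highest values, and vector replicate 8 held 5870 CPM over erythroid and 2340 CPM over mitosis genes. The part of red cell precursors in the mitosis calls was not tested, and without normal replicate 2 there were 24 calls. Mki67, the proliferation marker Ki-67, was not called (1.31 ± 0.50, adjusted p = 0.13), with normal replicate 2 at 401 CPM inside the lymphoma range of 211 to 924 CPM. Without normal replicate 1 just 3 of the 34 were called, without vector replicate 8 there were 13, and within the earlier runs 0 (median 0.99).

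Cdc20 and Ccnb2 promoters are shown because mitosis genes moved together and share known promoter letters. In capitals are TTTGAA (the core of the cell cycle homology region) and CCAAT, in either orientation. By RefSeq (GRCm38.p6) they lie at chr4:118437294-118437593 and chr9:70421505-70421804, both on the minus strand.
Cdc20: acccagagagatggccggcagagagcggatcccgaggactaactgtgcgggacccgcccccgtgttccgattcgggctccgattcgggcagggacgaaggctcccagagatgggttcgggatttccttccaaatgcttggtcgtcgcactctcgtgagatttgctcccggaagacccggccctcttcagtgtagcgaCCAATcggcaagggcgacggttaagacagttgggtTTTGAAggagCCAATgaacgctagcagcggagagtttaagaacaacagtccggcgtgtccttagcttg
Ccnb2: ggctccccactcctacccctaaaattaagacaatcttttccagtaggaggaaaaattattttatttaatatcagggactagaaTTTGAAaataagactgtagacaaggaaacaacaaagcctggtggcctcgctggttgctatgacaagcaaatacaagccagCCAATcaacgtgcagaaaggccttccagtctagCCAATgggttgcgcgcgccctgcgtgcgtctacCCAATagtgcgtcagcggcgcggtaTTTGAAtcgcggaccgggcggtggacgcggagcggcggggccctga

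TTTGAA, searched on both strands after the values were seen, occurred in 21 of 29 mitosis promoters (72.4%) against 14.8% of all tested genes with a promoter, and CCAAT in 22 (75.9%) against 42.5%. Members that rose and members that were not called held TTTGAA at like shares, 73.3% of 15 and 71.4% of 14. Of other motifs searched on both strands, the E-box CACGTG was in 9.47% of promoters of genes that rose, 8.33% of those that fell and 11.2% of all tested, and the octamer ATGCAAAT in 2.27%, 1.89% and 1.66%. The STAT-type TTCCNNGAA was in 5.30%, 4.92% and 5.42%, and the GC box GGGCGG in 66.1%, 59.5% and 65.3%.

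DNA replication genes gave a smaller and less stable count. Of 34 genes 8 rose and 0 fell (median 0.62), against 4.86% of all genes tested that rose. The fit of 12 samples called 22, against 12.4% of all its genes called higher. Lig1, which joins replicated strands, rose from 50.6 ± 9.55 to 131 ± 46.7 CPM (0.97 ± 0.24, adjusted p = 0.015), and Mcm6, a helicase subunit, from 107 ± 9.85 to 192 ± 36.3 CPM (0.75 ± 0.20, adjusted p = 0.0252). Leaving out normal replicate 1 left 0 calls, normal replicate 3, normal replicate 4 or vector replicate 8 left 1 each, and vector replicate 7 left 5. Ribosome biogenesis showed no call in 32 genes (median -0.18), and the fit of 12 called 8 lower.

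Regulators of the G1 phase moved both ways. Of 21 genes 3 rose and 2 fell (5 and 2 in the fit of 12), and without normal replicate 1 the counts were 1 and 0. Leaving out any other replicate except vector replicate 8 left 1 gene that fell. Cdkn2a, which encodes the inhibitors p16 and p19Arf, stood at 0.28, 0.725, 0.22 and 0.564 CPM in normal samples and at 1.08 to 3.65 CPM in lymphomas (2.68 ± 0.41, adjusted p = 0.000407). Cdkn1a, the p53-regulated inhibitor p21, was at 4.36 to 7.94 CPM against 8.6 to 29.4 CPM (1.61 ± 0.37, adjusted p = 0.011), and Cdkn2c, the inhibitor p18, rose by 1.16 ± 0.27. Ccnd2, the D-type cyclin of resting B cells entering the cycle, was at 336, 233, 212 and 248 CPM against 74.2 to 130 CPM (-1.54 ± 0.30, adjusted p = 0.00322), with no overlap. Ccnd1 also fell (-1.31 ± 0.40, adjusted p = 0.0493). Trp53 itself had -0.25 ± 0.22 (adjusted p = 0.58). Of 20 p53 targets Cdkn1a, Phlda3 and Bbc3 rose and Ddit4 fell, by 1.73 ± 0.39. Without normal replicate 1 these counts were 0 and 0, and without vector replicate 8 a rise was called for 1.

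In the Bcl2 family 1 gene passed the threshold. Bcl2 itself was at 122, 116, 138 and 128 CPM in normal samples and at 99.1 to 154 CPM in lymphomas, overlapping throughout (-0.01 ± 0.25, adjusted p = 0.99). The sources at hand do not say whether transgene reads enter that count. Of 15 family members 1 rose and 0 fell, against 4.86% and 2.01% of all genes tested. It was Bbc3, the killer protein PUMA, which went from 10.8 ± 1.49 to 27.2 ± 7.84 CPM (1.20 ± 0.33, adjusted p = 0.0305). This call was lost without normal replicate 1, 2 or 3 or vector replicate 8. Bcl2l11, the killer protein BIM, was at 75.7, 66.0, 67.3 and 85.4 CPM against 121 to 200 CPM, with no overlap, and was called in the fit of 12 samples (adjusted p = 0.00102) but not in the fit of 20 (1.04 ± 0.48, adjusted p = 0.23). Myc had -1.13 ± 0.47 (adjusted p = 0.16). Of 28 genes recurrently mutated in follicular lymphoma 0 were called (median -0.02). The fit of 12 called 1 higher and 4 lower, against 12.4% and 10.8% of all genes it tested. Tnfrsf14, a receptor often lost in that disease, had -0.03 ± 0.37 (adjusted p = 0.98), and Sesn1, an inhibitor of mTORC1 signalling, was at 134 ± 16.2 and 85.6 ± 13.6 CPM (-0.69 ± 0.33, adjusted p = 0.23, or 0.00337 in the fit of 12).

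Calls in the signalling lists stand beside 4.86% of all genes tested that rose and 2.01% that fell. Of 22 immediate-early and stress genes 3 rose and 0 fell (median 1.18), and the fit of 12 samples called 9. The 3 calls became 0 without normal replicate 1 or 3 and 7 without normal replicate 4. Hspa1a, a heat shock protein, was at 15.6 to 25.3 CPM in normal samples and at 242 to 1310 CPM in 7 lymphomas, but vector replicate 8 had 19.2 CPM (3.58 ± 0.91, adjusted p = 0.0194). Its near-identical copy Hspa1b moved alike, and reads of this pair cannot be assigned with certainty. Egr2, induced by antigen receptor signals, was at 12.5 to 29.6 CPM against 33.9 to 270 CPM (2.16 ± 0.56, adjusted p = 0.0203). These genes also respond to tissue handling, whose part in the result was not tested. Of 18 NF-kB genes 0 were called (1 higher and 1 lower in the fit of 12). Of 24 interferon response genes Mx1, an antiviral GTPase, fell (-1.44 ± 0.42, adjusted p = 0.0398), and the fit of 12 called 2 higher and 10 lower. That call was lost without any of 3 normal samples (replicates 1, 3 and 4) or 5 lymphomas (replicates 2, 3, 6, 7 and 8). Of 25 cytokine receptor and Jak-Stat genes Il10ra fell (-0.83 ± 0.25, adjusted p = 0.0437), a call kept in the leave-out fits only when vector replicate 5 was the sample left out. The fit of 12 called 2 higher and 5 lower. Of 24 homing receptors and regulators 2 rose (S1pr2 and Rgs13) and 2 fell, among them Gpr34, and no more than 1 gene of this list fell without any given replicate other than vector replicate 6, while the fit of 12 called 3 higher and 5 lower.

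Other cells were present in both groups, at levels that moved with the comparison. In bulk samples fewer cells of a type and less RNA per cell cannot be told apart, and the part of the following levels in the results above was not tested. NK and cytotoxic genes fell in 6 of 12 (median -1.31), against 2.01% of all genes tested. In the fit of 12 samples 8 were lower and 1 higher, against 10.8% and 12.4% of all its genes. The summed level of NK and cytotoxic genes ran from 256 to 428 CPM in normal samples and from 84.3 to 232 CPM in lymphomas. Ncr1, an NK cell receptor, was at 11.4, 22.1, 15.4 and 9.88 CPM against 1.17 to 4.15 CPM (-2.25 ± 0.35, adjusted p = 0.000428), and Gzma, a granule protease, at 34.2, 60.1, 39.6 and 19.4 CPM against 2.84 to 7.82 CPM (-3.26 ± 0.55, adjusted p = 0.000993). Neither gene overlapped between the groups. Without normal replicate 1 the NK list had 2 calls, and within the earlier runs 0.

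T cell markers differed by kind. Of 18 T cell genes 3 fell (Cd8a, Cd8b1 and Thy1), 0 rose and the median was -0.65, and the fit of 12 samples called 9 lower. Without normal replicate 1, 3 or 4, or without vector replicate 7 or 8, the calls numbered 1. Cd8a, of killer T cells, stood at 139, 151, 133 and 151 CPM in normal samples and at 21.2 to 101 CPM in lymphomas (-1.65 ± 0.34, adjusted p = 0.00469), and vector replicate 5 held the highest of those values. Cd4, of helper T cells, was at 181 ± 21.2 and 176 ± 34.9 CPM (-0.24 ± 0.27, adjusted p = 0.66), and Cd3e, of all T cells, at 86.2 ± 22.0 and 75.7 ± 18.9 CPM (-0.50 ± 0.38, adjusted p = 0.51).

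Genes of follicular helper and activated T cells rose. Of 16 measured 7 rose and 0 fell (median 1.32), against 4.86% of all genes tested that rose. The fit of 12 samples called 10, against 12.4% of all its genes called higher. Il21, the cytokine by which these cells help germinal centre B cells, was at 0.491, 1.47, 0.826 and 1.52 CPM in normal samples and at 4.88 to 14.2 CPM in 7 lymphomas, while vector replicate 5 had 1.16 CPM, inside the normal range (3.35 ± 0.85, adjusted p = 0.0185). Pdcd1, the PD-1 receptor, stood at 6.31 to 9.19 CPM against 13 to 75 CPM, the lowest again in vector replicate 5 (2.57 ± 0.48, adjusted p = 0.00252). Tox2, a factor of helper T cells, went from 3.02 ± 1.5 to 58.0 ± 27.7 CPM (4.81 ± 0.60, adjusted p = 8.85e-05). Vector replicate 5 was the lowest lymphoma for 10 of these 16 genes, as it was for 10 of the 14 germinal centre genes. Summed over the helper list, normal samples held 174 to 301 CPM and lymphomas 291 to 664 CPM. The calls numbered 3 without normal replicate 1, 2 within the earlier runs and 2 within the later.

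**Figure D5:**
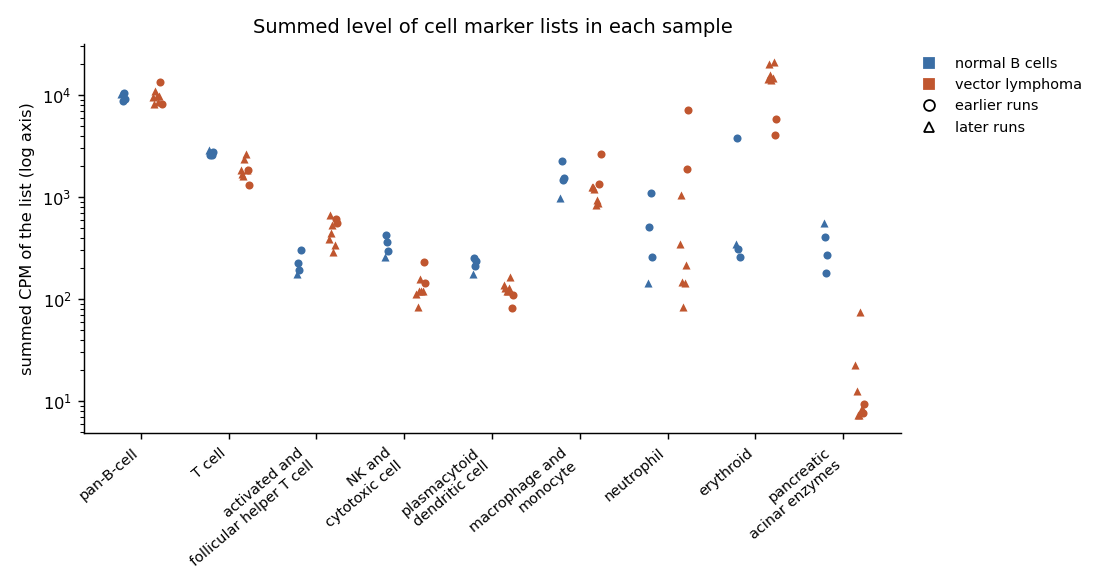
For each marker list the summed level in CPM (y axis, log scale) is drawn for every one of the 4 normal and 8 vector samples. Pan-B-cell sums overlap (8720 to 10400 against 8070 to 13500 CPM), NK sums lie lower in lymphomas, erythroid sums lie higher in lymphomas (4010 to 21200 CPM), with normal replicate 2 at 3810 CPM far above the other normal samples, and vector replicate 8 is high in neutrophil genes at 7090 CPM.

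Red cell and myeloid transcripts set single samples apart. Summed over 17 erythroid genes, normal replicates 1, 3 and 4 held 343, 310 and 256 CPM and normal replicate 2 held 3810 CPM, whereas lymphomas held 4010 to 21200 CPM. With a median log2 fold change of 2.60 no erythroid gene was called in the fit of 20 samples, 2 were in the fit of 12, and 16 of the 17 rose without normal replicate 2, as did 16 without the run term. Of 16 neutrophil genes 3 rose (the granule genes Prtn3, Elane and Mpo) and 6 did in the fit of 12. However, Prtn3 was at 0.351 to 6.43 CPM in normal samples and at 0.384 to 16.6 CPM in 7 lymphomas, with 108 CPM in vector replicate 8. Without that sample 0 were called, and without normal replicate 1 or 4 there was 1. Plasmacytoid dendritic cells also carry B220: 2 of their 10 genes fell, Ccr9 (-2.43 ± 0.47, adjusted p = 0.0033) and Siglech (-2.54 ± 0.72, adjusted p = 0.0357), and the summed level was 174 to 254 CPM in normal samples and 82.2 to 164 CPM in lymphomas. Among conventional dendritic cell genes Cd209a and Clec9a fell, and among macrophage genes Cd163, a scavenger receptor (-2.54 ± 0.58). Ccr9 was called whichever replicate was left out. Siglech lost its call without normal replicate 2, 3 or 4 or vector replicate 7 or 8, Clec9a without any normal replicate or vector replicate 7, and Cd209a and Cd163 without normal replicate 1. With normal replicate 2 and vector replicate 8 both left out, a choice made after seeing the data, 594 genes rose and 160 fell, and 12 germinal centre, 6 plasma cell, 17 mitosis and 5 helper T cell genes rose. Of 20 lymphocyte quiescence genes 1 rose (Cdkn2c), and of 10 megakaryocyte, 13 stromal and 13 mitochondrially encoded genes 0 were called (medians 0.06, -0.70 and 0.24).

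Enzymes of the exocrine pancreas were detected in normal samples. A list of 24 acinar enzymes, added after values were seen, had 20 tested members: 11 fell and 0 rose, against 2.01% of all genes tested that fell. All 20 lay lower in every lymphoma than in any normal sample, against 5.91% of all genes tested. Most were very low in lymphomas, so they could pass the filter on low counts through the normal samples, where they are high. Their separation and direction were then largely given in advance, and the counts only describe. Their summed level was 560, 408, 181 and 268 CPM in normal replicates 1 to 4 and 7.23 to 73.9 CPM in lymphomas, highest in vector replicate 5. Pnlip, pancreatic lipase, was at 114, 58.8, 27.8 and 39.1 CPM in normal samples and at 0.00 to 7.29 CPM in lymphomas (-7.37 ± 2.02, adjusted p = 0.0299). With the Y chromosome term 2 of the 20 were called. Trypsin genes of this list are near-identical, so their reads are uncertain. Of the 12 genes that fell furthest by the naming rule, 8 belong to this list, among them Pnlip, Cpb1, Try4, Try5, Dmbt1, Prss2 and Ctrl. B cells are not known to make these enzymes, and the part of this signal in other results was not tested.

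The remaining genes that rose furthest are not in the lists above. Among called genes whose higher group averaged 5 CPM or more, with no overlap and 1 sign in both run sets, 357 rose and 189 fell. Tgfa, a growth factor for the EGF receptor, was at 0.158, 0.0354, 0.147 and 0.104 CPM in normal samples and at 9.82 to 26.7 CPM (median 18.4) in lymphomas (7.18 ± 0.85, adjusted p = 6.46e-05). Thsd7a had 4 counts over the 4 normal libraries and 1.94 to 9.59 CPM in lymphomas, so no fold is given. Slpi, a secreted inhibitor of proteases, was at 5.45, 29.0, 7.99 and 19.6 CPM against 83.5 to 1170 CPM, the highest in vector replicate 8 (5.25 ± 0.84, adjusted p = 0.000672). Arhgap8, Apol11a, Cobl, Sostdc1, Rflna, Parm1, Emp2 and Apol11b followed at log2 fold changes of 5.11 to 6.79. The smallest adjusted p among these genes belonged to Ildr1, a tricellular junction protein, and to Dnm3, a dynamin. Ildr1 was at 5.38, 4.33, 5.36 and 7.29 CPM against 25.3 to 57.6 CPM (3.18 ± 0.31, adjusted p = 1.52e-05).

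Igfbp4, Hpgd and Tfpi were among the genes that fell with the smallest p. Igfbp4, a binding protein for insulin-like growth factors, stood at 82.3, 69.5, 76.7 and 82.5 CPM in normal samples and at 4.61 to 16.8 CPM (median 10.1) in lymphomas (-2.92 ± 0.31, adjusted p = 2.39e-05). The groups did not overlap, which the naming rule required. Hpgd, which breaks down prostaglandins, was at 21.2 to 40.3 CPM against 3.84 to 9.45 CPM (-2.07 ± 0.28, adjusted p = 0.000175), and Tfpi, an inhibitor of coagulation, fell by 1.86 ± 0.26 (adjusted p = 0.000178). Klra4 and Klra8, NK receptors of a family of near-identical genes, fell by 3.74 ± 0.72 and 3.32 ± 0.77. Il17rb, a receptor for interleukin 25, fell by 3.14 ± 0.55 (adjusted p = 0.00134). Of the 167 genes named by rule or list, 110 were called. The fit of 12 samples called all 110, while 55 stayed called without normal replicate 1 and 34 within the earlier runs. All 110 kept their sign under every alternative run. The furthest and smallest-p genes were named only if called with 1 sign in both run sets and no overlap. For those genes the kept sign and the gap between the groups were largely given in advance.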

How the data were processed

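Per the labels' protocols, libraries of poly-adenylated RNA were read on Ion Proton machines, and the authors deposited raw read counts per mouse Ensembl gene with 1 column per sample. Per the submitters' processing notes, the builds were mm9 and NCBIM37 and the tools HTSeq, Picard 1.119 and BWA 0.7.5a, without roles. The deposited counts cover 37620 genes, of which 32897 identifiers matched a symbol of the reference annotation, plus 5 lines of reads assigned to no gene, which were left out. These left 37.1 to 57.0% of the reads of a normal or vector sample as gene counts (28.7 to 56.3 M), and reads aligned to more than 1 place (14.3 to 31.3%) were not used.

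Genes were kept by filterByExpr. Libraries were scaled by TMM, and edgeR 4.0.16 tested each gene (quasi-likelihood F test, two-sided, Benjamini-Hochberg over 17824 genes) in 1 fit of 20 samples, 3 groups and a run term. On simulated data with the same groups and run term 90 of 100 genes changed 4-fold and 21 of 100 changed 2-fold were called. Of those calls 2.63% were unchanged genes. The simulation gave genes of like level the same spread, and it held no Myc change, no outlying sample and no imbalance of sex. Its shares therefore do not measure the false calls in the real data. Normal replicates were numbered in accession order, as were vector replicates. Log2 CPM used a prior count of 2. Immunoglobulin shares were compared by exact permutation over samples, and intervals or p-values cover only the spread seen. Alternatives were no run term, either run set alone, the 12 samples alone, RLE scaling, no filter, DESeq2 1.42.0, a 2-fold minimum and leaving out each replicate. A Y chromosome term, and leaving out normal replicate 2 with vector replicate 8, were added after seeing the data. Gene lists (35, with 645 distinct members, 8 not found) and named genes (12 furthest and 8 smallest p per direction, 2 to 4 members per list and a few fixed genes) were chosen with earlier results of these data known. Lists of pancreatic, amino acid response, interferon-activated 200 and folding genes, and genes the text needed for a role, were added after values were seen. Ighd, Igha, Iglc1 and Iglc3 were not analysed here, and results of a few genes that the rule or the lists would name are left out.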

Additional observations from a re-analysis of the deposited data

Results flagged for a closer look

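In 23 of 334 combinations of a named gene and a group, 1 sample's gap to its nearest neighbour exceeded the 95% limit of Dixon's test for that group size, and chance alone flags about 1 in 20. Of these 13 were in normal samples, where replicates 1 and 2 had 5 each, and 10 in lymphomas, where vector replicate 5 had 4.

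Normal replicate 2 stood high for Hba-a1 (942 CPM), Rhd (34.7 CPM) and Car2 (178 CPM), all genes of red cells, and for Plk1 (14 CPM), and low for Mx1 (20.7 CPM). Normal replicate 1, of the later runs, stood low for mt-Co2 (424 CPM), mt-Nd1 (497 CPM), Dnm3 (0.368 CPM) and Sostdc1 (0.228 CPM) and high for Hmces (75.7 CPM). Normal replicate 3 stood apart for Emp2 (0.147 CPM) and Zbtb32 (10.9 CPM) and normal replicate 4 for Ppm1e (6.81 CPM).

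Vector replicate 5 stood apart for Sesn1 (119 CPM), Pou2af1 (323 CPM), Psat1 (23.0 CPM) and Il21 (1.16 CPM). Vector replicate 8 was low for Hspa1a (19.2 CPM, with the other lymphomas at 242 to 1310 CPM) and Cd3e (36 CPM), and vector replicate 7 for Gp9 (0.959 CPM) and Slc7a5 (57.6 CPM). Vector replicate 2 stood apart for Cd1d1 (8.17 CPM) and vector replicate 3 for Il17rb (0.123 CPM).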

How the results depend on the processing

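Counts of calls depended on the fit. All 110 called named genes kept their sign in every alternative. They were picked as called and the alternatives reuse the same samples, so this was largely given in advance. In the germinal centre list 12 genes were called whichever replicate was left out. Against 1225 genes called (867 higher, 358 lower), leaving out the run term gave 1928 (1329 and 599), DESeq2 2087 (1479 and 608), the fit of 12 samples 3922 (2095 and 1827) and the earlier runs alone 123 (115 and 8). The later runs alone gave 221 lower genes, where the lone normal sample was assumed to vary like the lymphomas, and the Y chromosome term gave 159. Without normal replicate 2 and vector replicate 8 the calls were 754, with 160 lower. The earlier runs alone called 0 plasma cell, 2 immunoglobulin constant region, 0 DNA replication, 0 mitosis, 2 helper T cell and 0 NK genes, with 5 samples of these groups, and the later runs alone called 3 immunoglobulin, 4 DNA replication, 11 mitosis and 2 helper T cell genes. DNA replication counted 17 without the run term, 22 in the fit of 12 and 5 with a 2-fold minimum. Without normal replicate 2 and vector replicate 8, 6 plasma cell and 5 DNA replication genes were called. The cause of these shifts was not tested.

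Leaving out 1 replicate at a time, the calls ran from 330 to 1279 genes, 295 to 896 higher and 35 to 394 lower. By list they ran from 5 to 10 for plasma cell, 0 to 10 for DNA replication, 3 to 25 for mitosis, 3 to 7 for helper T cell and 2 to 7 for NK genes. The difference in the largest heavy V share ran from 6.38 to 15.88 percentage points, and it passed the threshold without vector replicate 1 or 5 (exact permutation p = 0.03 each). The switched share difference ran from 52.3 to 58.59. No paired analysis was possible because the replicate numbers come from accession order and the numbers in the titles count within a prefix. Depth limits genes of few counts: Thsd7a had 4 counts over the normal libraries.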

Other observations

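Genes induced when amino acids run short or eIF2 is phosphorylated were higher in the lymphomas. They were counted with a list of 30 genes written after Asns and Pycr1 had been seen among the smallest p-values, so the counts describe and support nothing further. Of the 30, 14 rose and 0 fell (median log2 fold change 0.71), the fit of 12 samples called 24, and 22 lay higher in every lymphoma than in any normal sample. Among all genes tested 4.86% rose and 7.33% lay higher in every lymphoma, and the fit of 12 called 12.4% higher. Asns, which makes asparagine, was at 2.03, 4.81, 2.74 and 1.88 CPM in normal samples and at 17.8 to 43.3 CPM (median 34.0) in lymphomas (3.72 ± 0.39 SE, edgeR adjusted p = 2.39e-05). Chac1, which degrades glutathione, stood at 0.123, 0.76, 0.459 and 0.668 CPM against 3.21 to 15.6 CPM, highest in vector replicate 8 (4.44 ± 0.54, adjusted p = 7.85e-05). Pycr1, of proline synthesis, was at 0.919 to 1.33 CPM against 7.38 to 14.8 CPM (3.36 ± 0.37). Atf4, the factor at the head of this response, was at 267, 234, 229 and 297 CPM against 408 to 841 CPM (1.13 ± 0.23, adjusted p = 0.00465). Slc3a2 and Slc7a5, which form an amino acid exchanger, rose by log2 fold changes of 1.55 ± 0.21 and 1.40 ± 0.29. None of these genes overlapped between the groups. With the Y chromosome term 11 of the 30 rose.

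The promoters of Asns and Chac1 are shown because both hold the amino acid response element TGATGNAA, the letters bound by Atf4 with a C/EBP partner, in capitals on either strand. Per RefSeq (GRCm38.p6) they lie at chr6:7693160-7693459 on the minus strand and chr2:119350992-119351291 on the plus strand.
Asns: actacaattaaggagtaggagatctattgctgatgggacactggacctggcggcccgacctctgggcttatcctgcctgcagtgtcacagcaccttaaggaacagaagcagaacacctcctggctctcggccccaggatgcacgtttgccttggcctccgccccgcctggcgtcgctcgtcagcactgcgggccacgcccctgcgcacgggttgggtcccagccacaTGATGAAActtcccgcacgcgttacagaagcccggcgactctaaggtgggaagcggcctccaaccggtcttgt
Chac1: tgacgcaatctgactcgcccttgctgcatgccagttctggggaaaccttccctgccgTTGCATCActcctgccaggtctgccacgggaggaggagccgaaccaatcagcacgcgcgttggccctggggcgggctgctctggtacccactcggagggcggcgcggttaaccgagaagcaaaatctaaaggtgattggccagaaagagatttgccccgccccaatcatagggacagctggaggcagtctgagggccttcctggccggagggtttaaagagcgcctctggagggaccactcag

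The element, searched on both strands after values were seen, occurred in 10 of 25 promoters of the list, in 7 of 11 of the members that rose, in 3 of 14 of those not called and in 2.90% of all tested genes with a promoter.

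Part of the interferon-activated 200 family, which includes DNA sensors and is encoded side by side in mouse, was lower. The list was again added after values were seen. Of 12 measured 7 fell and 0 rose (median -1.09), the fit of 12 samples called 8 lower, and 3 fell with the Y chromosome term. Among all genes tested 2.01% fell, and the fit of 12 called 10.8% lower. Ifi208 was at 89.7, 82.2, 93.7 and 101 CPM in normal samples and at 7.24 to 29.2 CPM in lymphomas (-2.17 ± 0.39, adjusted p = 0.00174). Aim2, a DNA sensor, hardly differed, at 67.9 ± 10.1 and 63.9 ± 6.18 CPM (-0.10 ± 0.22, adjusted p = 0.83). Ifi204, Ifi205, Ifi207 and Ifi211 were not called either. Summed over the family, normal samples held 1300 to 1510 CPM and lymphomas 439 to 741 CPM. Members of this family resemble each other, so reads counted to each are uncertain.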
